A study of Mus musculus with 36 samples.

Results

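Circular RNAs (circRNAs) from solute carrier genes were described in hippocampus and frontal cortex of the mouse over the light-dark cycle. A circRNA was taken as a solute carrier circle when both of its ends lay inside a protein-coding gene on the same strand (GENCODE M21) with a symbol starting with Slc, and when it was found in at least 2 replicates of a time point. The single-exon circle of Slc8a1 and all other Slc8a1 circles were left out. This rule gave 75 circRNAs of 6656 in all, with 64 of 5505 kept in hippocampus and 43 of 4790 kept in frontal cortex. The samples were hippocampi and frontal lobes of male mice of 9 to 10 weeks, of strain C57BL/6 in the labels and C57BL6/N in the study's methods, perfused to remove blood and kept under equal hours of light and dark. Each tissue was sampled at 6 zeitgeber times (ZT, hours after lights on), of which ZT1, ZT5, ZT9 fall in the light and ZT13, ZT17, ZT21 in the dark, with 3 replicates each, or 18 samples per tissue and 36 in all. Whether hippocampus and frontal cortex samples came from the same animals is not given in the labels, and p-values measure the spread between these samples.

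Solute carriers are membrane proteins that move amino acids, ions, sugars, metals, vitamins and nucleotide sugars across the cell membrane and the membranes of organelles, by facilitated diffusion or coupled to the gradient of another solute. In the brain they take up glutamate and other transmitters, set intracellular chloride, calcium and pH, and pass lactate and amino acids between glia, neurons and blood. A circRNA forms when the splice site at the end of one exon is joined to the start of the same or an earlier exon, so that the transcript closes into a ring. Such a head-to-tail junction is read as a circular read, and the number of circular reads is the measure used throughout.

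The junction is what identifies a circle, and those of the circles on which the results turn are given here, read 5′ to 3′ from the GENCODE M21 transcripts. Lower case marks the last 15 bases of the last exon in the circle, and capitals mark the first 15 bases of the first exon, which follows it only in the circular form.
Slc7a8 exons 2 to 3: ctgccatctgtttgtGGAACATCATTGGCT
Slc7a11 exons 2 to 6: agacaaccctgaaaaGAGCCCTGTCCTATG
Slc7a11 exons 3 to 6: agacaaccctgaaaaCCCTGGAGCTACTGC
Slc8a3 exon 2: gaatgatgaaacagtGTCACAGGCCTGTCA
Slc35f5 exons 5 to 10: gaagagacacaatagTTTGCAGATGCTGAA
Slc20a2 exons 2 to 5: acacaggagcgccagAAAGAAAGATCACAG
Slc44a1 exons 2 to 3: ccacacccaccggaaAGCTCCAAACGAGAA
Slc44a1 exons 2 to 4: ttgcagagatcaatgAGCTCCAAACGAGAA
Slc44a1 exons 2 to 5: accagtaccagccagAGCTCCAAACGAGAA
Both Slc7a11 circles used the same end of exon 6 and differed in the exon to which it was joined. The 3 Slc44a1 circles were the opposite case, with 1 shared start at exon 2 and 3 different last exons.

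Hippocampus libraries held 6754 to 73252 circular reads and frontal cortex libraries 8107 to 34803. ZT1 replicate 3 and ZT13 replicate 1 of the hippocampus had the highest and the lowest of these totals and stood apart from the other libraries. The smallest count above 0 was 2, so a value of 0 does not show that a circle was absent. Values of 0 also occurred in deep libraries, as for Slc2a13 exons 2 to 3 in hippocampus ZT1 replicate 3. Whether the calling of circles gave such values was not tested. As a check of the tissue labels, circles of 6 of 15 hippocampal marker genes were kept, with a summed level of 23.0 to 72.6 normalized reads per hippocampus sample and 0 to 17.8 per frontal cortex sample. Circles of 7 of 15 cortical marker genes had a median of 31.1 in hippocampus and 38.7 in frontal cortex, and their ranges overlapped. No circle of the markers listed for choroid plexus, oligodendrocytes, microglia or endothelium was kept. In bulk tissue, fewer cells of a type and fewer circles per cell cannot be told apart.

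Of the 384 protein-coding genes with an Slc symbol other than Slc8a1, 39 (10.2%) gave a kept circle on their own exons. For all protein-coding genes it was 2588 of 21992 (11.8%). The 39 genes held 72 circles. The remaining 3 circles lay within the Slc22a14 gene but matched the exons of Oxsr1, a kinase gene of the same strand whose product acts in the response to osmotic stress, and neither of their ends was on an Slc22a14 exon. They were found with 34 reads in hippocampus and 29 in frontal cortex and are counted among the 75, but not in the accounts of transporter genes below.

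Most solute carrier circles were rare. The 64 circles kept in the hippocampus had 1889 circular reads together, 0.506% of the reads of all kept circRNAs, and the 43 kept in the frontal cortex had 1506 reads, or 0.48%. The median circle had 17.5 reads summed over a tissue's 18 samples in hippocampus and 20 in frontal cortex, where the median of all kept circRNAs was 23 in both tissues. The 10 circles with the most reads held 48.7% of the solute carrier reads in hippocampus and 59.4% in frontal cortex. Only the Slc7a11 circle of exons 2 to 6 was found in all 18 samples of a tissue, the frontal cortex.

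At the threshold of the rule, 44 of the 75 circles were kept with 2 replicates of a time point and none with 3, and these had 5 to 72 reads over the 36 samples (median 14). Just outside it were 301 circles of Slc genes, with 2 to 23 reads (median 2), of which 228 were found in 1 sample. Of the 75 circles, 32 were kept in both tissues, 32 in hippocampus alone and 11 in frontal cortex alone. Of all 6656 kept circRNAs, 3639 were kept in both tissues, 1866 in hippocampus alone and 1151 in frontal cortex alone. Among the circles kept in the hippocampus alone, 23 of 32 also had reads in the frontal cortex. Of those kept in the frontal cortex alone, 9 of 11 had reads in the hippocampus. Reads in the other tissue were not counted over all circRNAs. The share kept in both tissues was 42.7% (54.7% of all kept circRNAs).

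**Figure D1:**
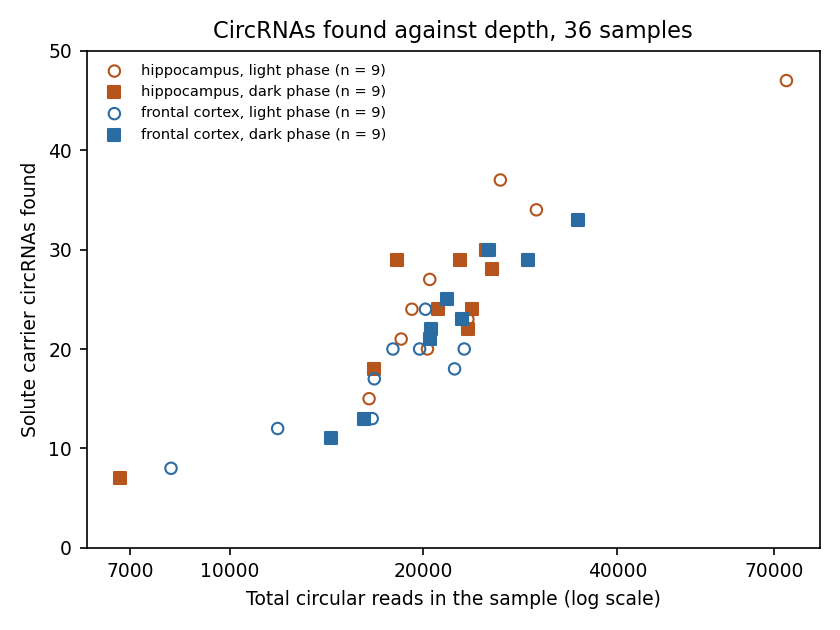
Number of solute carrier circRNAs found in each of the 36 samples against its total circular reads (log scale). Circles stand for light-phase and squares for dark-phase samples, and the number rose with depth from 7 in the shallowest to 47 in the deepest library.

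The number of solute carrier circles found in a sample was between 7 and 47 in hippocampus and between 8 and 33 in frontal cortex. It followed the total number of circular reads, as the plot of circles found against depth shows, with 7 circles at 6754 reads and 47 at 73252 reads. As a share of the reads of kept circRNAs, solute carrier circles took from 0.297% (95% Wilson interval 0.186 to 0.475) in ZT13 replicate 1 to 0.688% (0.571 to 0.827) in ZT21 replicate 1 of the hippocampus. In the frontal cortex the share was between 0.285% (0.206 to 0.394) in ZT13 replicate 1 and 0.632% (0.541 to 0.738) in ZT17 replicate 2. Intervals cover counting error only.

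Where the circles lie in their genes was described for the 62 of 72 circles with both ends on annotated exon ends of 1 transcript. The first exon in the circle was exon 2 of the transcript in 36 of them (58.1%), where the share was 32.3% among 5441 other circles of protein-coding genes and 39.1% among 46 circles of ATP-driven pumps and ABC transporters, the other large families of membrane transport. A start codon lay in 17 circles without a stop codon (27.4%, against 16.8% of the other circles) and a stop codon in 2, those of Slc33a1 exons 2 to 6 and Slc25a26 exons 4 to 6. The other 43 held coding sequence alone, and in 14 of these the length was a multiple of 3. No circle began with exon 1 or ended with the last exon of its transcript. This was also rare among the 5441 other circles, of which 9 began with exon 1 and 6 ended with the last exon. These shares are descriptions, since circles of 1 gene are not independent.

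The circles held 1 to 13 exons (median 3, other circles 4), and were 148 to 1902 nt long with a median of 494 nt (other circles 571 nt). The shortest was Slc24a2 exons 3 to 4 and the longest Slc4a10 exons 12 to 24. Single-exon circles came from Slc8a3, Slc45a4, Slc35f3 and Slco3a1, each with exon 2, and from Slc16a14 with exon 4. The intron before the circle had a median length of 14818 nt and the intron after it 16874 nt, beside 13050 and 10754 nt for other circles. The longest upstream intron, of 150725 nt, lay before Slc24a2 exon 3.

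Each of the 10 circles without a matching transcript had 1 end on an annotated exon of its host gene, which was the start of the circle in 7 and its end in 3. The most frequent of these was the Slc9a9 circle at chr9:95227188-95229200 on the plus strand, with 50 reads in hippocampus and 39 in frontal cortex. The other end of each lay off the annotated exon ends of the gene.

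For miR-7, the microRNA bound many times by the circRNA Cdr1as, the mature sequence of mmu-miR-7a-5p (RefSeq) is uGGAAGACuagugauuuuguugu with its seed in capitals. The letters GTCTTCC, which pair with this seed, were searched on the RNA strand across the junction. They were in 5 of 62 solute carrier circles (8.06%) and in 350 of 5440 other circles (6.43%). The 5 were Slc8a3 exon 2, Slc16a1 exons 2 to 4 and the 3 Slc16a14 circles, which all hold exon 4, and each had 1 match.

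Genes were grouped by the family number in their Slc symbol. The name of a group, here and below, thus need not give the solute carried by each of its genes. Transporters of amino acids and related solutes held the 2 circles with the most reads. Slc7a11, the cystine/glutamate antiporter xCT, formed a circle of exons 2 to 6 at chr3:50417988-50438915 on the minus strand, 514 nt long and coding. It had 169 circular reads in 17 of 18 hippocampus samples and 143 reads in 18 of 18 frontal cortex samples. Reads were normalized to the mean effective total of the 36 libraries, and on this scale the lowest, median and highest hippocampus samples had 0, 9.84 and 14.7 reads and those of the frontal cortex 4.06, 8.47 and 15.3. The sample at 0 was ZT13 replicate 1, the library with the lowest total. The smaller Slc7a11 circle of exons 3 to 6 had 31 reads in 7 hippocampus samples and 8 reads in 2 frontal cortex samples.

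Slc7a8, the neutral amino acid exchanger LAT2, formed the circle with the most reads in the frontal cortex, from exons 2 to 3 at chr14:54758439-54759745 on the minus strand (357 nt, coding). It had 150 reads in 16 of 18 hippocampus samples and 218 in 17 of 18 frontal cortex samples. In the hippocampus the lowest, median and highest samples had 0, 8.50 and 12.2 normalized reads, and in the frontal cortex 0, 13.1 and 19.6. Of the frontal cortex samples, 11 of 18 lay above the highest hippocampus sample, and 1, ZT1 replicate 2, was at 0, so the ranges overlapped. The hippocampus samples at 0 were ZT13 replicate 1 (6754 circular reads in all) and ZT1 replicate 2 (29951). ZT1 replicate 2 was thus at 0 in both tissues, and the reason was not tested.

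The remaining amino acid and transmitter transporters gave few reads. Slc38a1, the glutamine transporter SNAT1, had 55 reads in 13 hippocampus samples and 60 in 15 frontal cortex samples for its circle of exons 2 to 4. Slc38a10, Slc18b1 and Slc6a17, the last a transporter of synaptic vesicles, had circles with 8 to 13 reads in hippocampus and 0 to 13 in frontal cortex. Read counts of single circles are not scaled for depth. In all, this group had 8 circles from 6 genes, with 446 reads in hippocampus and 457 in frontal cortex.

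**Figure D2:**
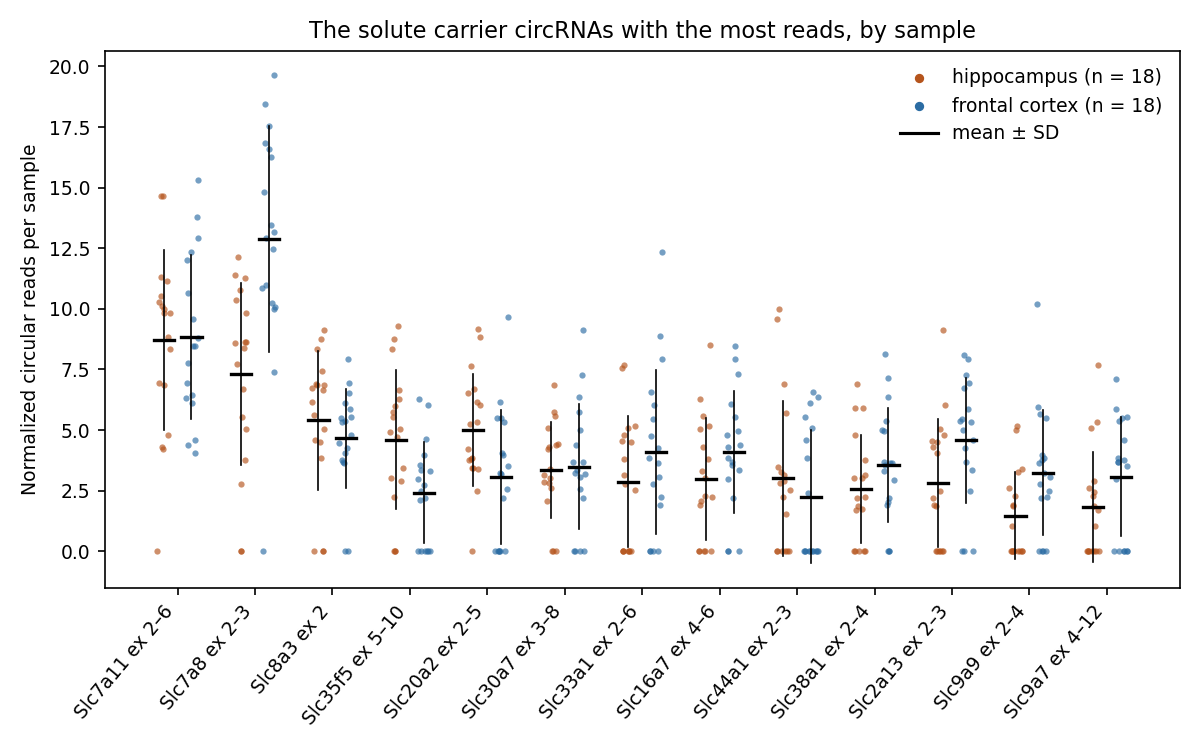
Normalized circular reads of the 13 circles that are among the 10 with the most reads in either tissue, with 1 point per sample and bars for mean ± SD (n = 18 per tissue). Slc7a8 stands higher in the frontal cortex (12.9 ± 4.67) than in the hippocampus (7.31 ± 3.75), and all 13 circles have samples at 0 in at least 1 tissue.

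Transporters of ions and acid-base equivalents formed the largest group, with 29 circles from 10 genes, 687 reads in hippocampus and 497 in frontal cortex. Slc8a3, the sodium/calcium exchanger NCX3, gave a single-exon circle of exon 2 at chr12:81314260-81316104 on the minus strand. It was 1845 nt long, contained the start codon and had 106 reads in 15 hippocampus samples and 78 in 16 frontal cortex samples. The corresponding exon 2 circle of the related exchanger gene Slc8a1 was 1830 nt long and had 2646 and 1779 reads. Slc20a2, the sodium-phosphate cotransporter PiT-2, had 93 and 51 reads for its circle of exons 2 to 5, found in 17 hippocampus and 12 frontal cortex samples. The circle of exons 2 to 4 with the same start had 18 and 25 reads.

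Slc9a7, a sodium/proton exchanger of the trans-Golgi network, held 7 circles, more than any other solute carrier gene. The 4 with annotated ends combined 2 starts, exons 2 and 4, with 2 ends, exons 5 and 12, in all 4 ways. That of exons 4 to 12 had the most reads, 37 in hippocampus and 55 in frontal cortex. Over the 7 circles there were 140 reads in 17 hippocampus samples and 116 in 16 frontal cortex samples. Slc9a9, an exchanger of endosomes, had 4 circles with 96 and 111 reads in the 2 tissues, and its circle of exons 2 to 4 had 30 reads in 9 hippocampus samples and 58 in 14 frontal cortex samples.

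Slc24a2, the potassium-dependent sodium/calcium exchanger NCKX2 of neurons, had 6 circles with 142 reads in hippocampus and 80 in frontal cortex. Without scaling for depth, its circle of exons 3 to 7 had 39 and 20 reads and that of exons 3 to 4 had 36 and 16. On the normalized scale the mean was higher in hippocampus for exons 3 to 7 (1.86 ± 1.99 and 1.07 ± 1.31, SD, n = 18 each), but not for exons 6 to 10 (0.685 ± 0.915 and 0.763 ± 1.23). Slc4a4, the sodium bicarbonate cotransporter NBCe1 known from astrocytes, had 4 circles with 35 reads in 8 hippocampus samples and 4 reads in 2 frontal cortex samples, and none was kept in the frontal cortex. These were too few samples for a test between the tissues. Slc4a4 was the only gene of the 7 astrocyte markers with a kept circle. Slc24a3, Slc4a10 and Slc9a2 had 1 circle each with 2 to 7 reads per tissue.

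**Figure D3:**
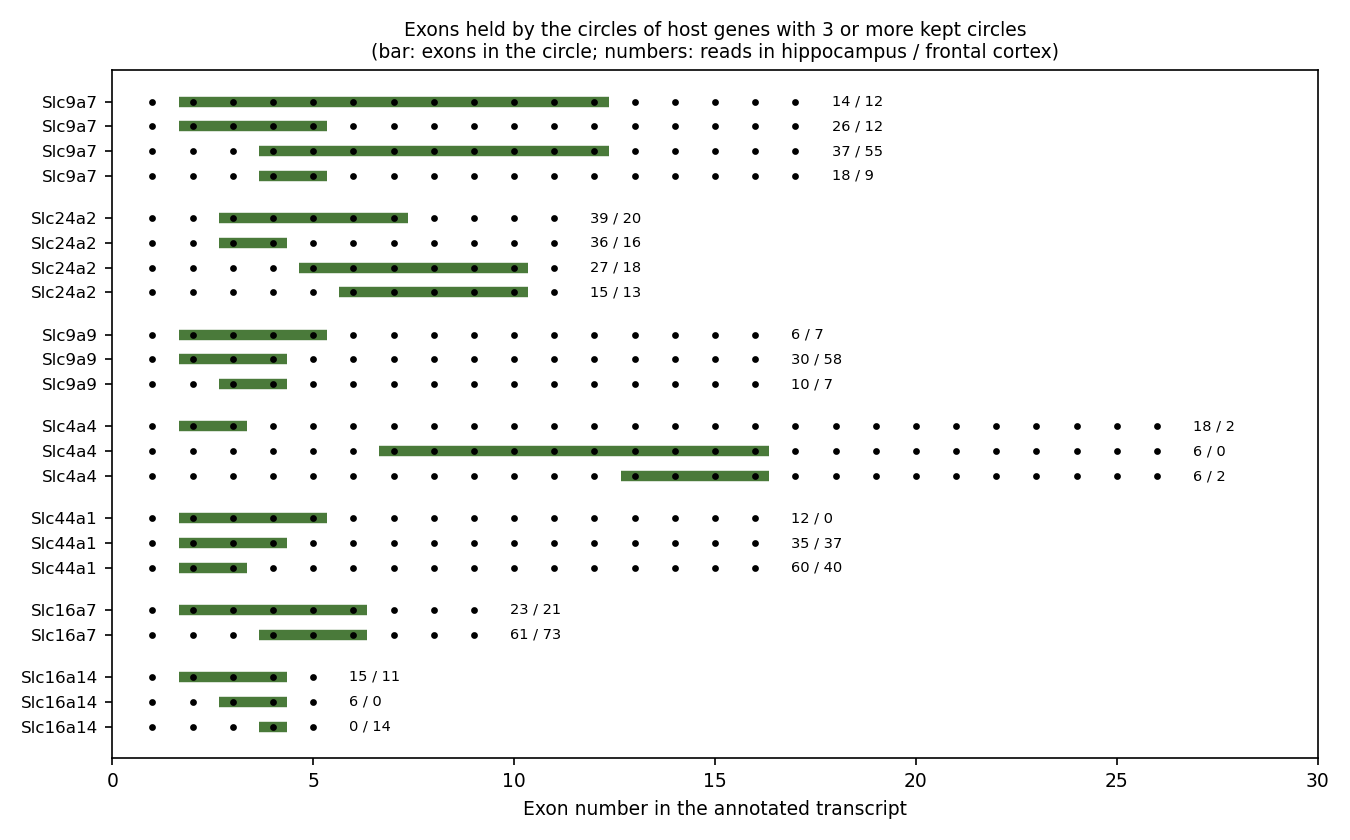
Exons held by each circle with annotated ends in the 7 solute carrier genes with 3 or more kept circles. Points mark the exons of the annotated transcript, bars the exons in the circle, and the numbers give hippocampus and frontal cortex reads, highest for Slc16a7 exons 4 to 6 (61 and 73) and at 0 in 1 tissue for 4 circles.

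Among carriers of sugars and carboxylates, 11 circles came from 7 genes, with 214 reads in hippocampus and 254 in frontal cortex. Slc16a7, the monocarboxylate transporter MCT2 that carries lactate into neurons, had 3 circles with 96 and 119 reads, of which that of exons 4 to 6 contained the start codon and had 61 and 73 reads. Slc2a13, the proton-coupled myo-inositol transporter HMIT, had 53 reads in 12 hippocampus samples and 79 in 15 frontal cortex samples. The 3 Slc16a14 circles shared the end of exon 4 and had 3 different starts, and none of them was tested between the tissues. Exons 2 to 4 had 15 and 11 reads, exons 3 to 4 had 6 and 0, and exon 4 alone had 0 and 14 reads in 6 frontal cortex samples. Slc45a4 exon 2 had 29 and 20 reads, and Slc16a1, Slc16a10 and Slc37a3 had circles with 0 to 8 reads.

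Carriers of nucleotide sugars, nucleosides and acetyl-CoA had 7 circles from 5 genes. Slc35f5, an orphan member of the nucleotide-sugar transporter family, had a circle of exons 5 to 10 at chr1:125568547-125579327 on the plus strand with 96 reads in 15 hippocampus samples and 41 in 12 frontal cortex samples. The lowest, median and highest samples had 0, 4.99 and 9.30 normalized reads in hippocampus and 0, 2.60 and 6.27 in frontal cortex, so that the ranges overlapped. Slc33a1, the acetyl-CoA transporter of the endoplasmic reticulum, had 63 and 68 reads for exons 2 to 6. Slc35e2, Slc35f3 and Slc35b3 had 35, 22 and 14 reads in hippocampus and 32, 3 and 9 in frontal cortex.

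Metal transporters had 8 circles from 5 genes, led by Slc30a7, the zinc transporter ZnT7 of the Golgi, with 66 reads in 15 hippocampus samples and 62 in 14 frontal cortex samples for exons 3 to 8. Slc41a2, Slc39a11, Slc30a5 and Slc30a9 gave the others, with 156 reads in hippocampus and 98 in frontal cortex over the group. Among carriers of organic ions, vitamins and lipids, Slc44a1, a choline transporter, had 3 circles with 60, 35 and 12 reads in the hippocampus for last exons 3, 4 and 5. In the frontal cortex these had 40, 37 and 0 reads. Slc10a7, Slc44a2 and Slco3a1 made up the rest of 7 circles from 4 genes. Mitochondrial carriers gave 2 circles, both kept in the hippocampus alone. Slc25a16 had 5 reads in hippocampus and 0 in frontal cortex. Slc25a26 had 11 reads in hippocampus and 8 reads in 4 frontal cortex samples.

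Between the tissues, the order of the 75 circles by reads was similar, with a Spearman's rho of 0.804 across circles, which share libraries and depth. Only 2 of the 75 had enough reads for the default filter of edgeR, which leaves 710 circRNAs for the test of hippocampus against frontal cortex over 36 samples. Of these 2, the Slc7a8 circle was called (edgeR quasi-likelihood test, adjusted p under 0.05), where 30.6% of all tested circRNAs were called and 14.1% were called as higher in the frontal cortex. The Slc7a8 circle was lower in the hippocampus by a log2 fold change of -0.91 (SE 0.25, adjusted p = 0.00537). The mean was 7.31 ± 3.75 normalized reads in hippocampus and 12.9 ± 4.67 in frontal cortex (SD, n = 18 each), and it was higher in the frontal cortex at 6 of 6 time points. For the Slc7a11 circle, the log2 fold change was 0.02 (SE 0.22, adjusted p = 0.964), with means of 8.71 ± 3.70 and 8.83 ± 3.38.

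The Slc7a8 difference rested in part on ZT13, where the hippocampus had 2.18 ± 1.95 and the frontal cortex 14.3 ± 4.84 normalized reads (SD, n = 3). Without this time point the log2 fold change was -0.60 and the adjusted p rose to 0.0801 in edgeR's test, so that no solute carrier circle was called. Without any other time point, or without the 2 hippocampus libraries of highest and lowest total, the call was made, with log2 fold changes between -0.99 and -0.92. The summed circles of striatal marker genes, a tissue next to the frontal lobe, were at 0 to 13.5 normalized reads in hippocampus and 0 to 19.8 in frontal cortex, and their part in the difference was not tested.

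**Figure D4:**
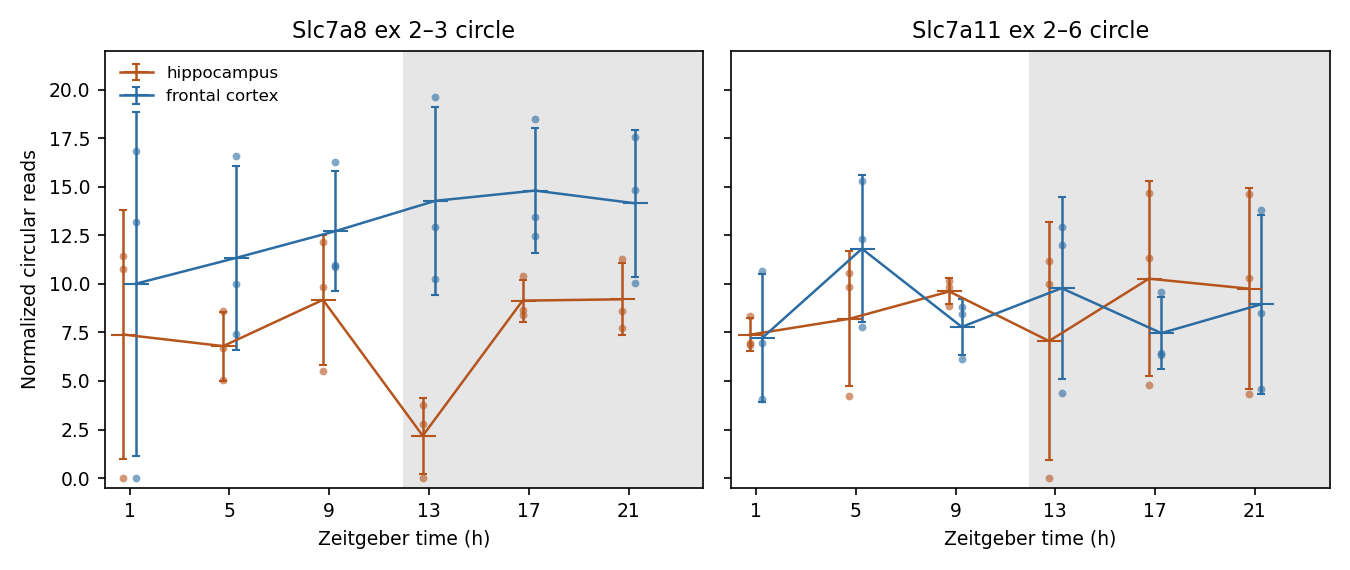
Normalized circular reads of the Slc7a8 and Slc7a11 circles by zeitgeber time, with points for samples, lines and bars for mean ± SD (n = 3) and the dark phase shaded. At ZT13 the Slc7a8 circle had 2.18 reads in hippocampus and 14.3 in frontal cortex, while the Slc7a11 circle had 7.06 and 9.78.

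To reach more of the circles, a broader filter was applied after the data were seen, with reads in at least 12 of 36 samples and a simpler design. It admitted 29 of the 75 circles among 3150 circRNAs. Again the Slc7a8 circle alone was called (log2 fold change -0.73, SE 0.22, edgeR adjusted p = 0.0139), where 9.4% of all tested circRNAs were called, 5.43% as higher in hippocampus and 3.97% as higher in frontal cortex. The log2 fold changes of the 29 were positive in 15 and negative in 14, with a median of 0.06 (0.08 for all 3150). Slc35f5 had the next smallest p-value, with a log2 fold change of 0.99 (SE 0.43, edgeR adjusted p = 0.132), and it did not pass. Slc20a2 exons 2 to 5 had 0.74 (SE 0.40), Slc9a9 exons 2 to 4 had -1.05 (SE 0.60), and the Slc16a7 circle at chr10:125228218-125233585 on the minus strand had -1.32 (SE 0.88), with adjusted p-values of 0.271 to 0.317. At this filter 93.5% of simulated 4-fold differences between the tissues were found but 10.5% of 2-fold differences, where 12.5% of the calls were false. The simulation gave all 3150 circRNAs 1 shared spread, so the share found among the 29 circles may differ. Their median SE was 0.704, beside 0.633 for all tested. A 2-fold difference could thus be missed in many of these circles, but the share found was not computed for them alone.

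**Figure D5:**
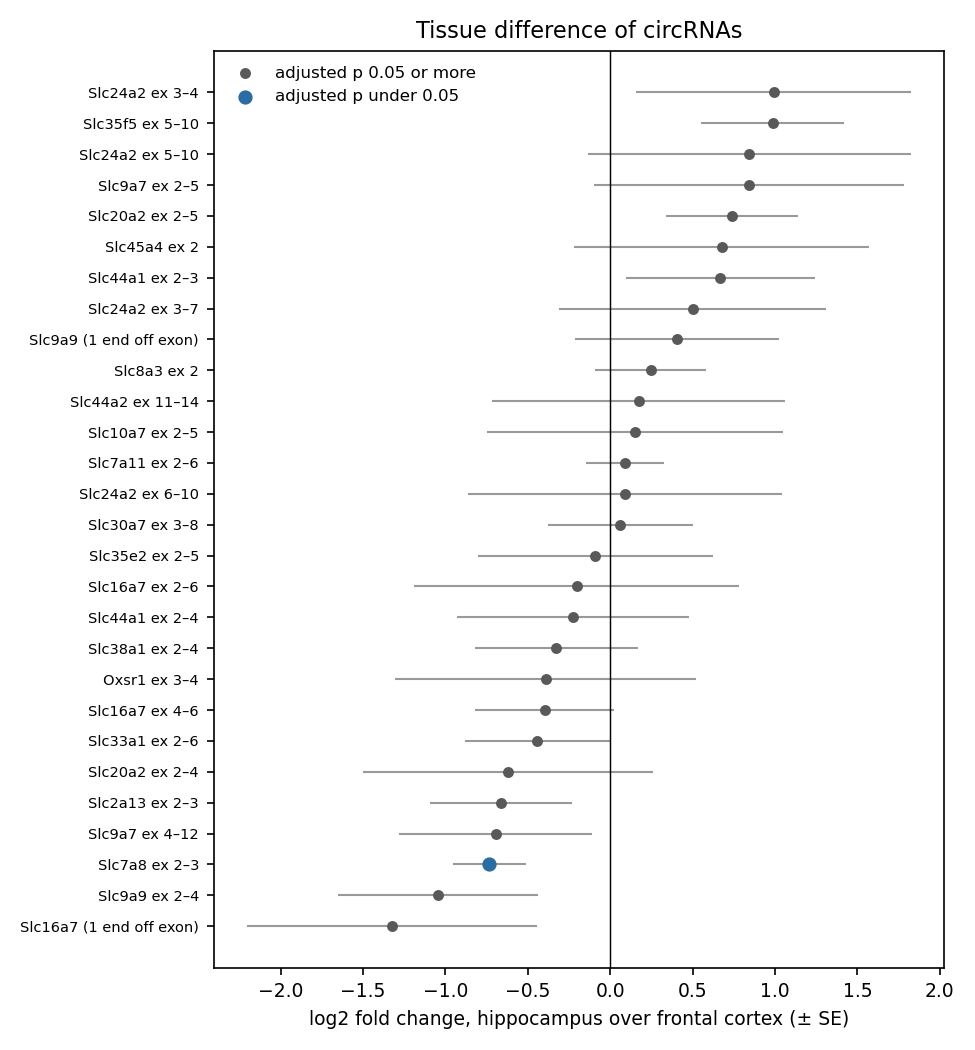
Log2 fold change of hippocampus over frontal cortex (± SE) of the circles with reads in at least 12 of 36 samples, 1 of which is not shown. The Slc7a8 circle at -0.73 is the 1 circle with an adjusted p under 0.05, and the others plotted spread on both sides of 0 from -1.32 to 0.99.

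When the circles of a gene were summed, 7 solute carrier genes could be tested among 718 host genes, of which 32.9% were called. Slc7a8, with its 1 circle, was again called (log2 fold change -0.91, SE 0.26, edgeR adjusted p = 0.0048). Slc24a2 had a lowest, median and highest sum of 0, 7.14 and 14.8 normalized reads in hippocampus and 0, 5.74 and 9.15 in frontal cortex. Its log2 fold change of 0.74 (SE 0.40, edgeR adjusted p = 0.154) did not pass. It passed without frontal cortex ZT5 replicate 3 (1.37, edgeR adjusted p = 0.0306) or frontal cortex ZT13 replicate 3 (1.45, edgeR adjusted p = 0.0238), each the only sample of its time point with Slc24a2 reads (4 and 6), so that the mean of that time point was then fitted to 0 reads. Slc16a7 had -0.59 (SE 0.35, edgeR adjusted p = 0.198), and Slc9a9, Slc44a1, Slc7a11 and Slc9a7 lay between -0.33 and 0.21 with adjusted p-values of 0.565 or more. With the broader filter 21 solute carrier genes were tested among 1742, and Slc7a8 alone was called, where 14.7% of all were called, 8.15% as higher in hippocampus and 6.54% as higher in frontal cortex.

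Between the light and dark phase, no solute carrier circle was called in either tissue. With the default filter 2 circles were tested in each tissue, and edgeR called 0% of all, at 582 hippocampus and 518 frontal cortex circRNAs, with 28 and 16 at an unadjusted p under 0.05, none of them a solute carrier circle, and DESeq2 called 0 in both. The Slc7a8 circle had a dark over light log2 fold change of -0.36 (SE 0.42) in the hippocampus, with 7.79 ± 3.88 normalized reads in the light and 6.84 ± 3.78 in the dark (SD, n = 9 each). In the frontal cortex it had 0.29 (SE 0.29), with 11.4 ± 5.38 and 14.4 ± 3.48. The difference between these changes, a log2 value of -0.68 (SE 0.51, edgeR adjusted p = 0.999), did not pass. The Slc7a11 circle had 0.17 (SE 0.32) in hippocampus and -0.02 (SE 0.31) in frontal cortex, values below their standard errors. With the broader filter none of 29 circles differed between the tissues in the change with phase, where 0.0952% of all tested were called, 0.0635% with a positive and 0.0317% with a negative difference.

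Across all 6 time points no solute carrier circle was called either, with edgeR adjusted p-values of 0.996 or more for Slc7a8 and Slc7a11. Among all tested circRNAs, 0% were called in hippocampus and 0.193% in frontal cortex. The broader filter admitted 37 circles in hippocampus and 29 in frontal cortex. None was called by phase, where 0.0287% and 0.0312% of all tested were called, or across time points, where it was 0.287% and 0.281%. Of simulated 4-fold phase changes at this filter, 57% were found in hippocampus and 57.5% in frontal cortex. Of 2-fold changes, 1% were found in each tissue, so the absence of a call does not show that these circles were steady. By phase, 0 of the 37 and 1 of the 29 had an unadjusted p under 0.05, where it was 106 of all 3489 and 125 of all 3201 tested, so these counts are no result about the solute carrier circles. Slc8a3 exon 2 was found in 9 of 9 light and 6 of 9 dark hippocampus samples, with 6.59 ± 1.89 and 4.24 ± 3.29 normalized reads (log2 fold change -0.60, SE 0.42). In the frontal cortex it was found in 7 light and 9 dark samples, with 4.01 ± 2.48 and 5.30 ± 1.38. Slc30a7 exons 3 to 8 had 2.21 ± 2.48 normalized reads in the light and 4.77 ± 2.11 in the dark phase of the frontal cortex, and Slc33a1 exons 2 to 6 had 5.65 ± 3.79 and 2.53 ± 2.16. For both, the edgeR adjusted p was 0.998. Slc45a4 exon 2 had the smallest p-value of the frontal cortex circles, and the same adjusted p. There it had 2 reads in 1 of 9 light samples and 18 reads in 5 of 9 dark samples. Scaled for depth, these were 0.22 ± 0.66 and 1.80 ± 2.11 normalized reads. In the hippocampus it had 15 reads in 5 light samples and 14 reads in 4 dark samples.

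Of summed host genes, 5 solute carrier genes were tested for the phase among 618 in hippocampus and 3 among 559 in frontal cortex, and none was called (0.162% and 0% of all). The sum of the Slc9a7 circles had the lowest p-value of these. In the light phase of the hippocampus its lowest, median and highest samples had 6.64, 7.59 and 14.4 normalized reads, and in the dark phase 0, 4.80 and 11.2. All 9 light samples had reads, and the ranges overlapped. The log2 fold change was -0.82 (SE 0.38), and the edgeR adjusted p was 0.913. In the frontal cortex the same sum was 5.29 ± 3.89 in the light and 7.72 ± 3.05 in the dark phase (SD, n = 9 each). With the broader filter 25 solute carrier genes were tested in hippocampus and 21 in frontal cortex, and none was called (0.11% and 0% of all). Slc38a10, an amino acid transporter of the SNAT family, had the smallest p-value among them. Its circles had 24 reads in 6 of 9 light samples of the hippocampus, at most 6 per sample, and 0 reads in 9 dark samples, with an edgeR adjusted p of 0.151. The 3 light samples without reads overlapped with the dark samples.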

How the data were processed

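The values the authors deposited are read counts of each head-to-tail junction in each library of hippocampus or frontal cortex, called with CIRI2 after mapping total RNA reads (rRNA-depleted libraries) to GRCm38 with BWA. These counts are whole numbers without normalization. In the tables, 1 further column of hippocampus ZT1 replicate 3 was not used. Annotation was GENCODE M21. Sequences came from its transcripts and from the RefSeq table of microRNAs. The members and the lists of transporters and markers were chosen with earlier results of these data known.

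The tool was edgeR 4.0.16 under R 4.3.3, run on these counts (scaling by TMM, default filter on low counts, quasi-likelihood test, Benjamini-Hochberg adjustment over all circRNAs or host genes tested, threshold 0.05), with a mean for each time point of each tissue. Tissues were compared in 1 fit of 36 samples, phases and time points within a tissue over 18. TMM rests on circular reads alone. With the broader filter, the terms were tissue and time point, phase, or tissue, phase and their interaction. Standard errors are the log2 fold change fitted without prior count over the root of the F statistic. Alternatives were DESeq2 1.42.0, its size factors, total circular reads, no filter, the replicate number as a block and leaving out each replicate. The scripts were tested on simulated data with 1 spread shared by all circRNAs, where with the default filter 98% of 2-fold tissue differences among 710 were found.

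The text names the 10 circles with the most reads in each tissue, those called in any test, the 5 with the smallest p between tissues, those found in all 18 samples of a tissue, host genes with 3 or more circles and the 5 host genes with the smallest adjusted p. Others were named after their values were seen. The circles of 1 gene are counted in the totals but not reported here. Depth was 6754 to 73252 circular reads per sample, and a floor of 3 reads was 0.0524% of kept reads in the shallowest hippocampus library.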

Additional observations from a re-analysis of the deposited data

Results flagged for a closer look

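Each tissue and phase, with 9 samples, was examined for a sample far from the others in 5 measures, which makes 20 comparisons, and chance alone marks about 1 in 20. In the light phase of the hippocampus, ZT1 replicate 3 had 296 reads of solute carrier circles, the highest of the 9 samples, and it was also the library with the most circular reads in all (73252). Its share of 0.497% lay among the others. In the same phase, ZT5 replicate 1 had the lowest share of solute carrier reads, 0.354%.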

How the results depend on the processing

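The number of solute carrier circles depended on the rule and on depth. In the hippocampus there were 24 when all 3 replicates of a time point were required, 112 with any 2 samples and 14 after thinning each library to 6754 reads (frontal cortex 8107; median of 20 draws, counts of 1 set to 0). In the frontal cortex these numbers were 20, 87 and 16. Leaving out 1 library gave 57 to 64 and 38 to 43 circles. Their mean share of the reads of kept circRNAs stayed within 0.4845 to 0.5075% and 0.4534 to 0.4739%. The tissue difference of Slc7a8 was called under every alternative of scaling, filter, tool and block (log2 fold changes of -0.93 to -0.73) and in 36 of 36 fits without 1 library (-0.99 to -0.79). Without ZT13, an alternative chosen after seeing the data, 0 circles were called and Slc7a8 had -0.60. With 1 library left out, 1 to 2 solute carrier host genes were called as different between tissues. The Slc7a11 tissue difference, near 0, turned to -0.02 with the replicate block, to -0.0064 without ZT9 and to -0.065 without ZT17, and in its 36 fits without 1 library it lay between -0.027 and 0.11. Its phase change in the frontal cortex was 0.038 with the broader filter, 0.0048 with total scaling, 0.079 without a filter, and -0.12 to 0.12 without 1 library. The summed Slc9a7 tissue difference was 0.029, 0.0044 and 0.021 in the same 3 settings and -0.11 to 0.093 without 1 library. The phase change of summed Slc24a2 circles in the hippocampus was -0.68 to 0.084 without 1 library. Samples of the 2 tissues with the same time point and replicate number had a mean correlation of deviations of -0.016 over 18 pairs. This cannot tell whether they came from the same animals, because counting error also enters the deviations. A replicate block changed no call. No cause of these changes was tested. Counts of few reads limit all of them.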
